A study of Mus musculus with 32 samples.

Results

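The genes described here are 10 genes of fatty acid oxidation and of the PPAR response in the mouse hypothalamus: Cpt1a, Cpt1c, Acadvl, Acadm, Hadhb, Acaa2, Acot11, Plin2, Angptl4 and Ucp2. They were picked as members with earlier results of these data known, and were found by name, as the rows of the expression table whose Ensembl gene ID carries one of these symbols in the GRCm38 annotation. All 10 were found among 55401 gene IDs, each as a single row, and all 10 passed the filter on low values that kept 19928 genes for testing.

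RNA of the whole hypothalamus was sequenced from 32 male C57BL/6NTac mice. Knockout mice were hemizygous for a deletion of Gpr101, an X-linked orphan receptor of hypothalamic neurons, and received a diet with 60% of its energy from fat (KO_HFD, 9 mice) or control diet (KO_CD, 8 mice). Wild-type littermates received the same high-fat diet (WT_HFD, 8 mice) or control diet (WT_CD, 7 mice). All mice ate standard chow until 7 weeks of age, when the high-fat diet began, and they were killed at 149 or 150 days. The 149-day mice were 1 KO_HFD, 5 KO_CD, 1 WT_HFD and 6 WT_CD mice, so age largely followed diet. Gpr101 had 1 read in all KO_HFD libraries together and 0 reads in KO_CD, against 2855 ± 102 normalized counts in WT_HFD and 2839 ± 104 in WT_CD (SD), as the labels imply. Reads on genes ranged from 25.3 to 34.2 M per library, with a median of 27.7 M. The values below are normalized counts, that is, reads divided by a library size factor, unless another scale is named. In tissue RNA of this kind, fewer cells of a type and less RNA per cell cannot be told apart.

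Fatty acids are burned in mitochondria after they are activated to acyl-CoA and carried across the mitochondrial membranes as carnitine esters, a step that malonyl-CoA restrains. A repeating cycle of dehydrogenation, hydration, dehydrogenation and thiolysis then shortens the chain. Peroxisome proliferator-activated receptors (PPARs) are fatty acid-sensing nuclear receptors that pair with RXR and raise the transcription of many of these genes in liver, muscle and fat. In the brain, astrocytes carry out most fatty acid oxidation, and hypothalamic lipid sensing takes part in the control of feeding.

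PPAR-RXR pairs bind a direct repeat of AGGTCA with 1 base between the repeats, so promoters were searched for that motif on both strands. RefSeq windows of the GRCm38.p6 assembly, running from 250 bases before to 50 bases after a start site, were at hand for 8 of the 10 members, in 9 windows, of which Acot11 has 2. An exact repeat was in none of the 9 windows and in 0.0396% of 32851 windows of that length. With up to 2 mismatches outside the spacer, the repeat was in the Plin2 window and in 3.86% of all windows. A single AGGTCA on either strand was in 5 of the 9 member windows and in 16.3% of all windows. The Plin2 window is shown because it held the closest match, and the Acot11 windows because Acot11 differed between diets. Each runs 5′ to 3′ on the strand of the gene, which is the minus strand for both, and capitals mark the 13 bases closest to the motif.
Plin2 chr4:86670010-86670309: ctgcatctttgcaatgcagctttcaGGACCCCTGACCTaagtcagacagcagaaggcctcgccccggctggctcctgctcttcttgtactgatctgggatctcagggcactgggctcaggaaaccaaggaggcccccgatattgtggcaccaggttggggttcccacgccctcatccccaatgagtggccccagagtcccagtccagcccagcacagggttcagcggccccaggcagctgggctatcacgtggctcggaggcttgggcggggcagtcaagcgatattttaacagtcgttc
Acot11 chr4:106799782-106800081: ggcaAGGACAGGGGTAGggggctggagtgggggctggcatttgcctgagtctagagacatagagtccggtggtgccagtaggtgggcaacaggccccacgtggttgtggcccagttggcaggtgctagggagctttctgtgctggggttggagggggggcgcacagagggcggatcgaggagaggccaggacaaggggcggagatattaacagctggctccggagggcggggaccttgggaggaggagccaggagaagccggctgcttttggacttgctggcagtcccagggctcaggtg
Acot11 chr4:106804958-106805257: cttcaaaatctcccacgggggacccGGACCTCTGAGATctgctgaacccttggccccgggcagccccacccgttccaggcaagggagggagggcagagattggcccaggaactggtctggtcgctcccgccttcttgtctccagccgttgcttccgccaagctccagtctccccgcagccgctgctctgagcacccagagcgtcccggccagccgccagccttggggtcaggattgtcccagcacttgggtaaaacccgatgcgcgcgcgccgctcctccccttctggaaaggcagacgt
The capitals in Plin2 match the motif on the opposite strand with 2 mismatches and begin 225 bases before the start site. The best match was 4 mismatches away in the first Acot11 window and 3 in the other, on the opposite strand. A match with at most 3 mismatches was in 24.7% of all windows. A match of this kind is a description of letters, not a binding site.

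Scaled for the length of their annotated exons to TPM (transcripts per 1 M), the members fell into an ordered range. Cpt1c had the highest level at 42.1 ± 1.34 TPM (SD, n = 32), Acadvl followed at 39.3 ± 2.18, Hadhb at 37.9 ± 1.47 and Acaa2 at 37.4 ± 3.62 TPM. Hadhb and Acaa2 could not be ordered, since Hadhb was the higher in 17 of 32 mice. Acadvl lay above Hadhb in 24 of 32 mice, by 1.36 ± 2.25 TPM. Acadm was at 32.4 ± 1.80 TPM, Ucp2 at 28.0 ± 2.41 and Acot11 at 22.2 ± 1.87 TPM. The lowest were Cpt1a at 12.7 ± 1.03, Plin2 at 9.76 ± 0.829 and Angptl4 at 4.06 ± 0.759 TPM. From Acaa2 down, each gene exceeded the next in at least 31 of 32 mice. The spread between mice was smallest for Cpt1c, with a coefficient of variation of 3.5%, and greatest for Angptl4, with 18.9%. Levels per length depend on the annotated exons, which can exceed the transcript that a tissue uses. This may apply to Ucp2, Hadhb, Acot11, Cpt1a and Cpt1c, with 6989, 6595, 6056, 7642 and 5605 bases of merged exons. Acaa2 had 1516 bases, so its place beside Hadhb rests on these lengths. The order of the members holds for these lengths only.

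Of the 10 members 2 differed between diets, in opposite directions. Age largely followed diet, and neither difference passed with age as a covariate. Acaa2, the mitochondrial thiolase that splits acetyl-CoA from the shortened chain, was higher on high-fat diet by 13.8% averaged over genotypes. Acot11, a thioesterase that releases free fatty acids from acyl-CoA, was lower by 10.1%. For diet averaged over genotypes 67 of 19928 genes were called, 0.336%, of which 37 were higher (0.186%) and 30 lower (0.151%). No member passed for diet within knockouts, where 7 genes were called (0.0351%), or within wild types, where 5 were called (0.0251%), and 3 and 2 members had an unadjusted p under 0.05 there, against 7.04% and 7.39% of all genes. Averaged over genotypes 5 members had one, against 11.1% of all genes. Tests were limma fits across all genes with Benjamini-Hochberg adjustment and a threshold of 0.05.

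**Figure D1:**
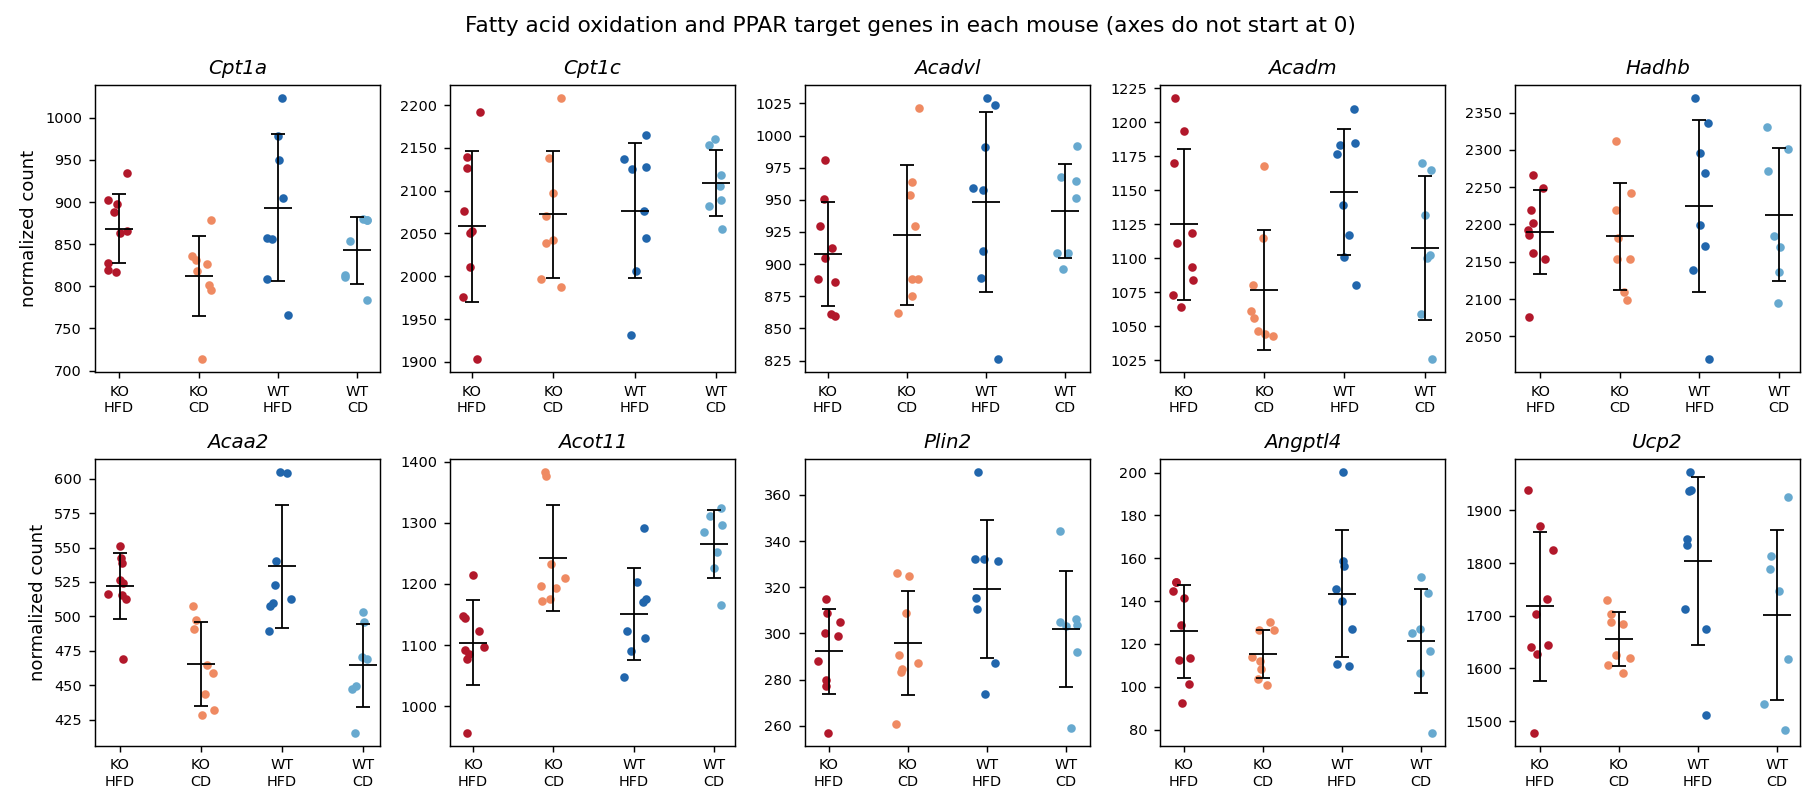
Normalized counts of the 10 members in each of 32 mice, by group, with the mean and SD as bars; the vertical axes do not start at 0. Acaa2 lies higher and Acot11 lower in both high-fat groups than in both control-diet groups, with overlapping ranges, and the other members overlap more widely.

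Acaa2 (ENSMUSG00000036880, GRCm38 chromosome 18, 74779197 to 74806208, plus strand) had a lowest, median and highest value of 469, 524 and 551 normalized counts in KO_HFD, against 428, 462 and 508 in KO_CD. In WT_HFD these were 489, 518 and 605, against 415, 469 and 503 in WT_CD. Every one of the 17 mice on high-fat diet lay above the median of the mice on control diet, and 14 of 17 lay above their highest value. Of the 15 mice on control diet, 8 lay below the lowest value on high-fat diet, so the ranges overlapped. The fitted log2 difference was 0.19 (SE 0.034, 95% interval 0.12 to 0.25, adjusted p = 0.00269) averaged over genotypes. It was 0.17 in knockouts (adjusted p = 0.282) and 0.21 in wild types (adjusted p = 0.214). The difference of these differences was -0.04 (SE 0.068, adjusted p = 0.999).

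Acot11 (ENSMUSG00000034853, chromosome 4, 106744555 to 106804998, minus strand) had a lowest, median and highest value of 957, 1096 and 1215 normalized counts in KO_HFD, against 1172, 1203 and 1383 in KO_CD. In WT_HFD these were 1047, 1146 and 1291, against 1165, 1285 and 1324 in WT_CD. Of the 17 mice on high-fat diet, 16 lay below the median of the mice on control diet and 12 below their lowest value. The log2 difference was -0.15 (SE 0.029, 95% interval -0.21 to -0.09, adjusted p = 0.00471) averaged over genotypes, -0.17 in knockouts (adjusted p = 0.117) and -0.14 in wild types (adjusted p = 0.449). The interaction was -0.03 (SE 0.059, adjusted p = 0.999).

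Both calls were kept in each of the 32 fits that left out 1 mouse, with adjusted p between 0.00141 and 0.00789 for Acaa2 and between 0.00136 and 0.0122 for Acot11. With age as a covariate the sizes were much the same, at 0.20 (adjusted p = 0.0735) for Acaa2 and -0.17 (adjusted p = 0.0596) for Acot11, and neither passed. Within the mice of 150 days the log2 differences were 0.15 and -0.19, and within those of 149 days 0.28 and -0.14, and limma called 0 genes for diet averaged over genotypes in either subset, with 780 and 1367 genes at an unadjusted p under 0.05. Each of these subsets rests on very few mice of 1 diet in at least 1 genotype, and a lone mouse is assumed there to vary like the other groups.

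The 2 carnitine palmitoyltransferases did not pass for diet. Cpt1a (ENSMUSG00000024900, chromosome 19, 3322334 to 3385733, plus strand) forms acylcarnitines at the outer mitochondrial membrane and sets the rate of entry. Its lowest, median and highest values were 817, 866 and 934 normalized counts in KO_HFD against 714, 822 and 879 in KO_CD, and 766, 882 and 1024 in WT_HFD against 783, 853 and 880.1 in WT_CD. Of 17 mice on high-fat diet, 13 lay above the median on control diet, the ranges overlapped, and the log2 difference was 0.09 (SE 0.032, adjusted p = 0.266). Cpt1c (ENSMUSG00000007783, chromosome 7, 44959372 to 44974851, minus strand), the neuronal form with little catalytic activity, averaged 2059 ± 88.3 in KO_HFD against 2072 ± 74.1 in KO_CD, and 2077 ± 78.7 in WT_HFD against 2109 ± 38.2 in WT_CD (SD). Its diet difference was -0.02 on the log2 scale, with a 95% interval of -0.06 to 0.02.

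The dehydrogenases and the trifunctional protein of the oxidation cycle differed little. Acadm (ENSMUSG00000062908, chromosome 3, 153922357 to 153944632, minus strand), the medium-chain acyl-CoA dehydrogenase, had 1064, 1111 and 1218 normalized counts as lowest, median and highest in KO_HFD against 1043, 1059 and 1168 in KO_CD, and 1080.2, 1158 and 1210 in WT_HFD against 1026, 1102 and 1170.0 in WT_CD. In 15 of 17 mice on high-fat diet the level exceeded the median on control diet, with a log2 difference of 0.06 (SE 0.024, adjusted p = 0.356). Acadvl (ENSMUSG00000018574, chromosome 11, 70010183 to 70015411, minus strand), which handles very long chains, had group means between 908 in KO_HFD and 948 in WT_HFD and a diet difference of -0.01 (95% interval -0.06 to 0.05). Reads of Acadvl are uncertain in part, because Dvl2, at a mean of 803 normalized counts, overlaps it on the opposite strand and the strand setting of the counting is not given in the sources used here. Hadhb (ENSMUSG00000059447, chromosome 5, 30155248 to 30184593, plus strand), the thiolase subunit of the trifunctional protein for long chains, averaged 2190 ± 56.4 in KO_HFD against 2184 ± 71.3 in KO_CD, and 2225 ± 116 in WT_HFD against 2213 ± 89.3 in WT_CD. Its diet difference was 0.01 (95% interval -0.04 to 0.05), so the 2 thiolases Acaa2 and Hadhb had intervals that did not overlap; the difference between genes was not tested.

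The remaining 3 members act outside the oxidation cycle. Plin2 (ENSMUSG00000028494, chromosome 4, 86648386 to 86670060, minus strand) coats lipid droplets and is a PPAR target in liver. It had 257, 299 and 315 normalized counts as lowest, median and highest in KO_HFD against 261, 289 and 326 in KO_CD, and 274, 323 and 370.0 in WT_HFD against 259, 304 and 344 in WT_CD. Groups overlapped widely, and the diet difference was 0.03 (SE 0.042, adjusted p = 0.839). Angptl4 (ENSMUSG00000002289, chromosome 17, 33773750 to 33781830, minus strand), a secreted inhibitor of lipoprotein lipase, had 92.5, 129 and 149 in KO_HFD against 101, 112.9 and 130.2 in KO_CD, and 110, 143 and 200.4 in WT_HFD against 78.5, 125 and 151 in WT_CD. Its diet difference of 0.18 on the log2 scale was about the size of that of Acaa2, but with an SE of 0.083 it did not pass (adjusted p = 0.430). Ucp2 (ENSMUSG00000033685, chromosome 7, 100493337 to 100502020, plus strand), a mitochondrial inner-membrane carrier of the uncoupling protein family, had 1478, 1703 and 1939 in KO_HFD against 1591, 1655 and 1731 in KO_CD, and 1513, 1840 and 1973 in WT_HFD against 1484, 1748 and 1926 in WT_CD. The diet difference was 0.07 (SE 0.039, adjusted p = 0.540). Dnajb13 overlaps Ucp2 on the opposite strand at a mean of 67.5 normalized counts.

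No member passed for genotype. On control diet 1 of 19928 genes was called (0.00502%), on high-fat diet 1 (0.00502%) and averaged over diets 1 (0.00502%), and no member was among them. All 10 members had a negative knockout minus wild-type log2 difference averaged over diets, between -0.12 for Angptl4 and -0.02 for Acaa2, with a median of -0.04. The median of all tested genes was -0.002, and 51.7% of them lay below 0. On high-fat diet 10 members and on control diet 9 members were below 0, against 51.5% and 50.2% of all genes; the members were measured in the same mice, so they are not independent of each other, and these counts carry no test. Plin2 on high-fat diet was the single member with an unadjusted p under 0.05 for genotype, where all 9 KO_HFD mice lay below the WT_HFD median of 323 and 5 of 8 WT_HFD mice exceeded the KO_HFD maximum of 315. Its log2 difference was -0.12 (SE 0.058, adjusted p = 0.948), but it was -0.0287 (adjusted p = 1) in the 23 mice with low levels of meningeal fibroblast markers, -0.0697 (adjusted p = 0.996) in mice of 150 days and -0.52 (adjusted p = 1) in mice of 149 days, where each group on high-fat diet has 1 mouse. Averaged over diets, Plin2 was at -0.08 (SE 0.042, adjusted p = 0.871), Ucp2 at -0.05 (SE 0.039), Cpt1a at -0.04 (SE 0.032) and Acot11 at -0.04 (SE 0.029). Several marker lists also lay to 1 side for genotype averaged over diets, with no gene called. Tanycyte, ependymal and pituitary markers were below 0 in 7 of 7, 6 of 6 and 5 of 5 tested genes, with medians of -0.09, -0.10 and -0.24, and astrocyte and microglial markers in 7 of 8 each. Oligodendrocyte and neuronal markers were above 0 in 6 of 6 and 7 of 8 genes, with medians of 0.03 each. The 2 diets were not alike in this. On control and high-fat diet, 7 and 4 of 7 tanycyte, 6 and 5 of 6 ependymal and 2 and 5 of 5 pituitary markers were below 0. So were 5 and 7 of 8 astrocyte and 6 and 7 of 8 microglial markers. Above 0 were 6 and 3 of 6 oligodendrocyte and 8 and 6 of 8 neuronal markers. Summed tanycyte markers ranged from 6791 to 7679 normalized counts in KO_HFD, 6708 to 7540.3 in KO_CD, 6584 to 7810 in WT_HFD and 7212 to 8318 in WT_CD. Most of that sum was Col25a1, which averaged 4877 in KO_HFD, 4856 in KO_CD, 4769 in WT_HFD and 4973 in WT_CD. Summed ependymal markers ranged from 1418 to 1936 in KO_HFD, 1500 to 1813 in KO_CD, 1602 to 1939 in WT_HFD and 1503 to 2219 in WT_CD. Summed pituitary markers ranged from 1503 to 2647 in KO_HFD, 1467 to 2448 in KO_CD, 1601 to 3569 in WT_HFD and 1703 to 2956 in WT_CD. Pomc alone averaged 1935 in KO_HFD, 1968 in KO_CD, 2531 in WT_HFD and 2132 in WT_CD. The pituitary sum was thus mostly Pomc and says little about the other pituitary markers. The part of the marker lists in the members' values was not tested.

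No member passed for a difference in diet response between genotypes. The interaction called 0 of 19928 genes (0%), limma-voom on recovered reads also called 0, and 676 genes had an unadjusted p under 0.05 in the limma fit, none of them a member. Interaction estimates of the members ran from -0.13 for Angptl4 to 0.02 for Cpt1a. Plin2 showed the next most negative value at -0.10 (SE 0.084), with a diet difference of -0.02 in knockouts and 0.08 in wild types.

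**Figure D2:**
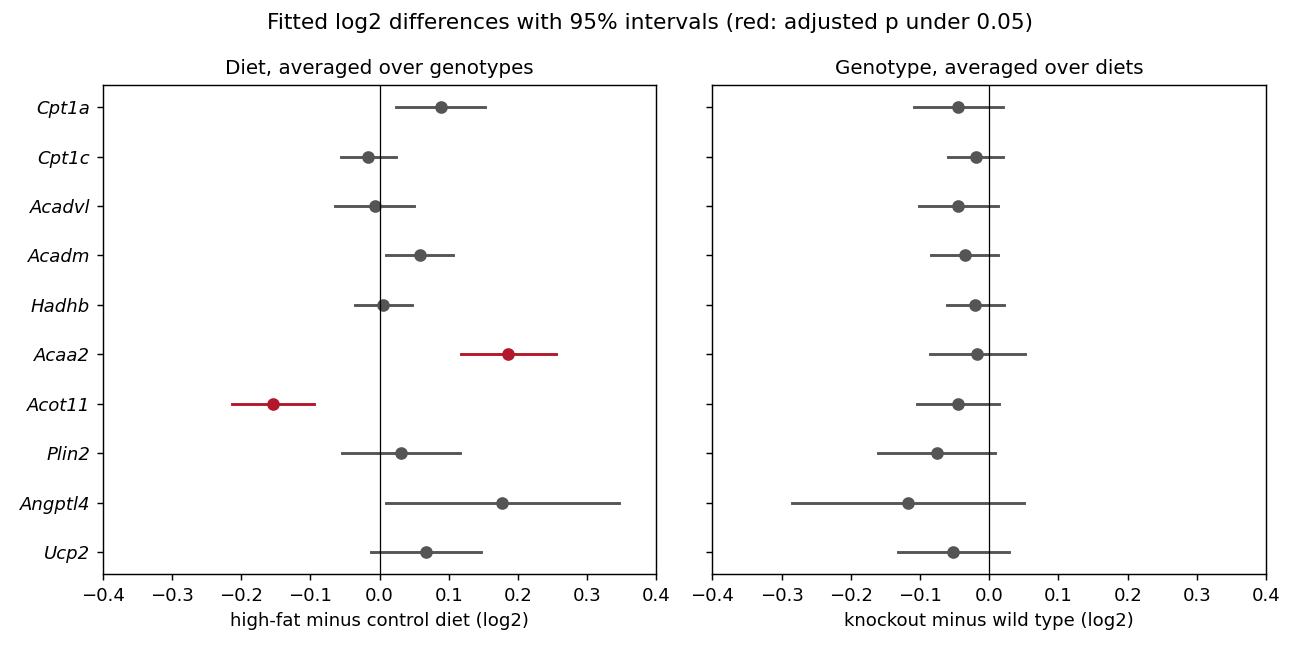
Fitted log2 differences of the 10 members with 95% intervals, for high-fat minus control diet averaged over genotypes and for knockout minus wild type averaged over diets. Acaa2 and Acot11 are the members called for diet, at 0.19 and -0.15, and all 10 genotype estimates lie below 0 with intervals that include 0.

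Markers of meningeal fibroblasts split the mice into 2 ranges, which touches several members. On the log2 scale the list of 8 markers averaged 8.59 to 9.34 in 9 mice and 6.49 to 7.97 in the other 23. The 9 mice were 3 KO_HFD, 1 KO_CD, 4 WT_HFD and 1 WT_CD, and the summed markers ranged from 1410 to 7027 normalized counts in KO_HFD, 1166 to 5755 in KO_CD, 1188 to 6827 in WT_HFD and 1379 to 4066 in WT_CD. No marker was at 0 throughout. Cpt1a averaged 924 ± 52.3 in the 9 mice and 828 ± 42.2 in the 23, a log2 difference of 0.16, and Acadm averaged 1177 ± 35.7 and 1091 ± 39.1, a difference of 0.11. Diet was unequal between the ranges, with 7 of the 9 mice and 10 of the 23 on high-fat diet. Within groups, the log2 difference between the ranges was 0.14 for Cpt1a, 0.10 for Acadm, 0.14 for Angptl4, 0.08 for Ucp2, 0.05 for Acaa2 and 0.04 for Acot11. It was smaller than 0.04 on that scale for Acadvl, Hadhb and Plin2, and -0.04 for Cpt1c. These ranges were defined from the data, so no test is given for them. Other marker lists also varied with these members over the 32 mice, after group means were removed. Cpt1a had r = 0.74 with endothelial, 0.73 with meningeal and 0.60 with choroid plexus markers. For Acadm these were 0.52, 0.71 and 0.66, and for Cpt1c -0.12, -0.40 and -0.53. Which tissue the differences come from was not tested.

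**Figure D3:**
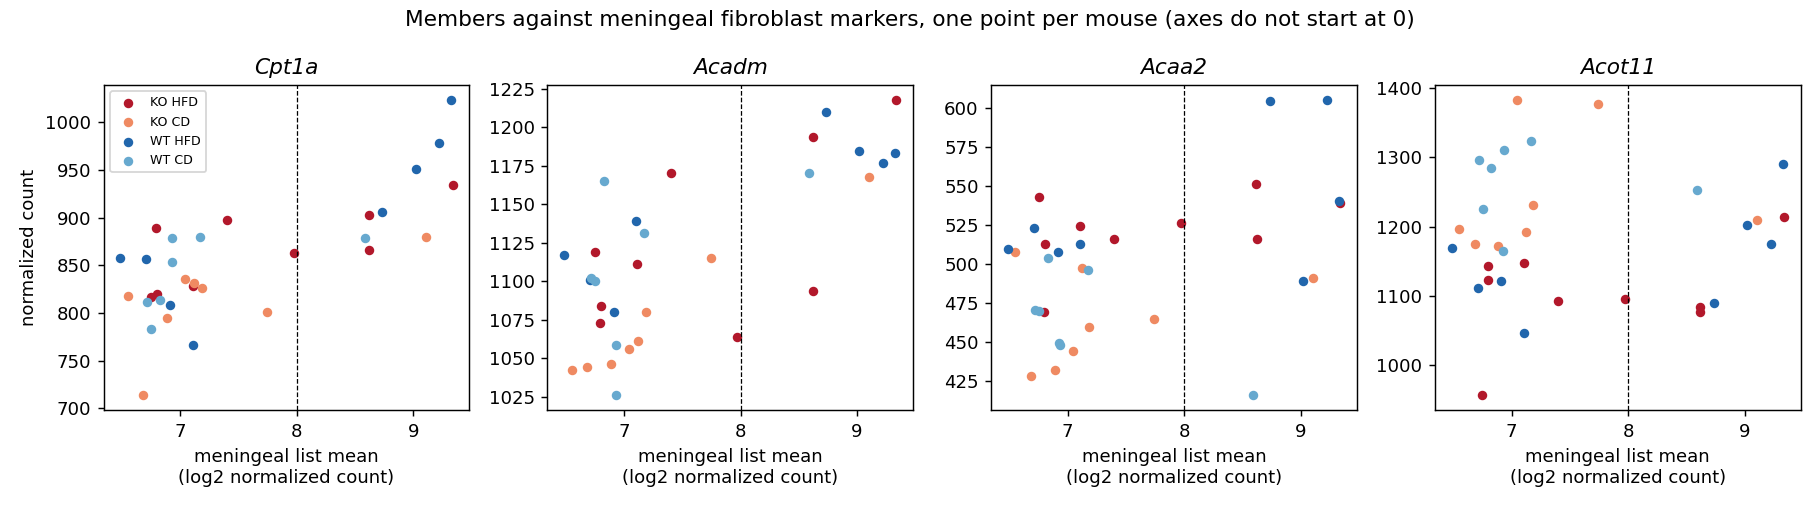
Normalized counts of Cpt1a, Acadm, Acaa2 and Acot11 in each mouse against the mean log2 level of 8 meningeal fibroblast markers; the dashed line marks 8, between the 2 ranges, and the axes do not start at 0. Cpt1a and Acadm are high in most of the 9 mice right of the line, whereas Acot11 overlaps widely; 7 of the 9 mice right of the line and 10 of the 23 left of it were on high-fat diet.

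In the 23 mice with low meningeal markers, a subset chosen after the data were seen, Acot11 kept its call for diet with a log2 difference of -0.19 (adjusted p = 0.00729). Acaa2 had a difference of 0.14 there and did not pass (adjusted p = 0.187), and Cpt1a was at 0.03 and Ucp2 at -0.02. Genotype differences averaged over diets were closer to 0 in those mice for all 10 members. Cpt1a was at -0.0037 there, against -0.0446 in all mice, Acadvl at -0.0023 against -0.0449, Plin2 at -0.0233 against -0.076, Hadhb at -0.008 against -0.0202 and Cpt1c at -0.0083 against -0.0193. Blood markers were also higher on high-fat diet: the globin genes Hba-a1, Hba-a2, Hbb-bs and Hbb-bt were called for diet averaged over genotypes, with log2 differences of 0.59 to 0.62. Summed blood markers ranged from 14643 to 35463 normalized counts in KO_HFD, 9041 to 20287 in KO_CD, 14623 to 39566 in WT_HFD and 9588 to 15882 in WT_CD. Without the 2 mice with the highest blood markers, KO_HFD replicate 4 and WT_HFD replicate 2, Acaa2 was at 0.20 (adjusted p = 0.00263) and Acot11 at -0.17 (adjusted p = 0.00152). The part of blood and meninges in the remaining values was not tested.

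The other genes of these pathways were described by 10 lists, which hold 128 genes once genes not reported here are left out, and 115 of these were tested. Among the 115, for diet averaged over genotypes none was higher and 1 was lower, and for genotype none passed on either diet or averaged.

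Acaca, an acetyl-CoA carboxylase that makes malonyl-CoA, was just past the threshold for diet. It averaged 3390.3 ± 153 normalized counts in KO_HFD against 3539 ± 104 in KO_CD, and 3349.5 ± 216 in WT_HFD against 3627 ± 56.2 in WT_CD. The log2 difference was -0.09 (SE 0.022, adjusted p = 0.0474). That call was kept in 8 of the 32 fits that left out 1 mouse, namely those without KO_CD replicate 4, KO_HFD replicates 3 and 4, WT_CD replicate 3 and WT_HFD replicates 2, 3, 5 and 7, with adjusted p between 0.0153 and 0.0858 over all 32. Fasn, the fatty acid synthase that uses malonyl-CoA, was at -0.11 (SE 0.027, adjusted p = 0.0754) and did not pass.

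**Figure D4:**
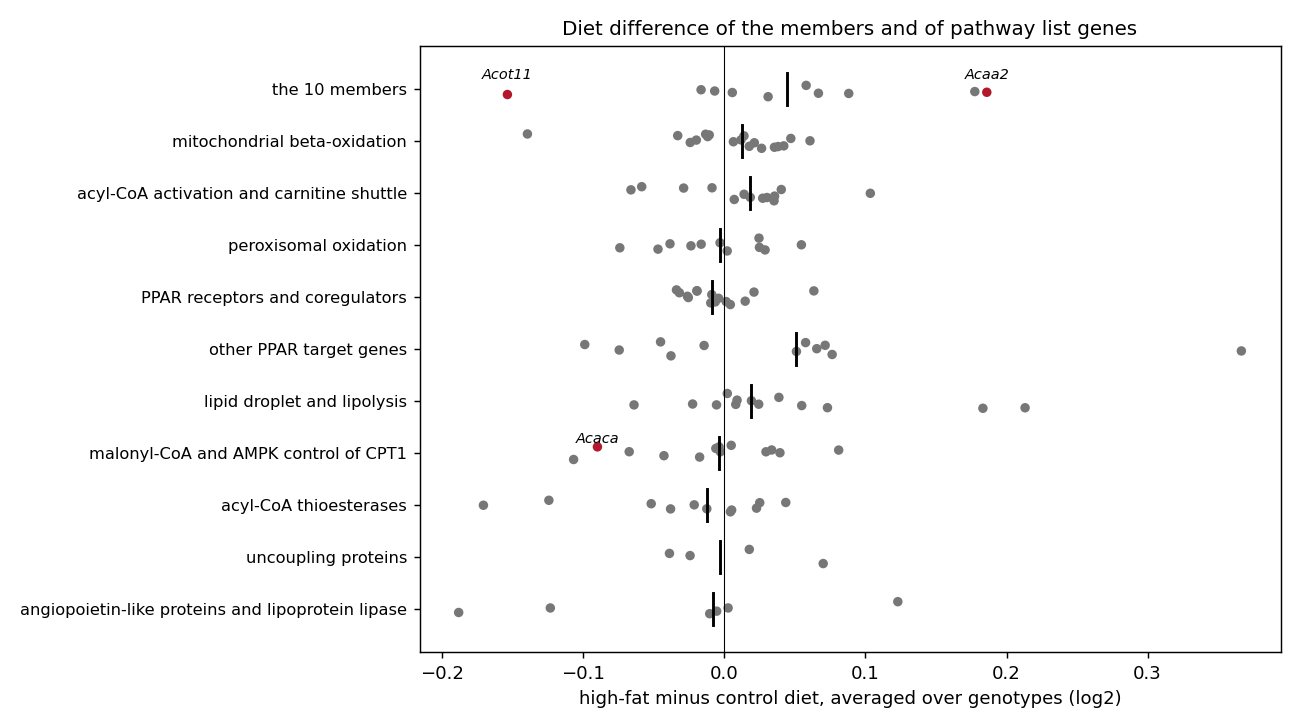
Log2 difference between high-fat and control diet, averaged over genotypes, for the 10 members and the tested genes reported from the 10 pathway lists; black bars mark list medians and red points the called genes. Acaca at -0.09 is the gene called among those drawn from the lists, and list medians lie between -0.01 and 0.05.

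Most lists sat near the median of all genes, which was -0.001 for diet. In mitochondrial beta-oxidation, 11 of 18 genes were above 0 with a median of 0.01, and the genes of smallest p were Acadsb at 0.04 and Acadl at 0.06. Activation and the carnitine shuttle had 9 of 13 above 0 with a median of 0.02, and Acsl6 and Acsl3, which activate long-chain fatty acids, were at -0.06 and -0.07 (adjusted p = 0.107 and 0.132). Peroxisomal oxidation had a median of -0.003 over 11 genes. Receptors and coregulators had a median of -0.01 over 15 genes, with the corepressor Ncor1 at -0.03. Other PPAR targets had a median of 0.05 over the 11 of 18 that were tested, with Txnip at 0.37 (SE 0.12, adjusted p = 0.191). Fgf21, Cyp4a10, Cyp4a14, Fabp4, Vnn1 and Cidec were too low to be tested, and Fabp1 was listed at 0 in every mouse. Lipid droplet genes had a median of 0.02 over 13 genes, with G0s2, an inhibitor of the lipase Pnpla2, at 0.21 (SE 0.067, adjusted p = 0.161) and Mgll at -0.06. Thioesterases other than Acot11 had a median of -0.01 over 11 genes, with Acot13 at -0.05 and Them6 at -0.04, none called. Uncoupling proteins other than Ucp2 had 4 tested genes, with Slc25a30 at 0.07 and Slc25a27 at -0.02. Relatives of Angptl4 and lipases had 6 tested genes, with Lipg at -0.19 and Lpl at -0.12.

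For genotype averaged over diets, 70 of the 115 tested list genes were below 0 and none was called. Medians of the lists lay between -0.04 for other PPAR targets and 0.02 for thioesterases. Small p values were those of Lipg at -0.31 (SE 0.10, adjusted p = 0.758) and Slc27a1, a fatty acid transport protein, at -0.05 (adjusted p = 0.848). Ppara itself was at -0.16 (SE 0.081, adjusted p = 0.867) and Pdk4, a PPAR target that restrains pyruvate oxidation, at -0.10 (SE 0.052). Cpt2, the inner-membrane partner of Cpt1a, was at -0.07, and Etfb, which accepts electrons from the acyl-CoA dehydrogenases, at -0.40 with an SE of 0.17.

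Across the 32 mice, after the mean of each group was removed, members varied together only weakly. Of 45 pairs, 37 had a positive Pearson r, with a median of 0.224, and no pair passed a permutation test of r with 100000 resamples within groups and adjustment over the 45 pairs (smallest adjusted p = 0.0729). Plin2 and Cpt1c had r = 0.50 (p = 0.00385, adjusted p = 0.0729, permutation test) and rho = 0.68 (p = 0.00017, adjusted p = 0.00765), and r was 0.50 again without the 2 mice farthest from the Plin2 median. In the 23 mice with low meningeal markers, that pair had r = 0.64 (adjusted p = 0.0288, permutation test). Acadm and Ucp2 had r = 0.54 (p = 0.00338, adjusted p = 0.0729, permutation test) and rho = 0.55 (p = 0.00263, adjusted p = 0.0592), with r = 0.57 without the 2 farthest mice and 0.55 in the 23 mice. Cpt1a and Acadm had r = 0.48 in all mice (p = 0.00601, adjusted p = 0.0729, permutation test), and r = 0.51 without the 2 farthest mice. Their rho was 0.48 (p = 0.00846, adjusted p = 0.119, permutation test). In the 23 mice their r was -0.06. The change in r was not tested, and that subset was chosen after the data were seen. In the 23 mice, 31 of 45 pairs were positive with a median r of 0.105.

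**Figure D5:**
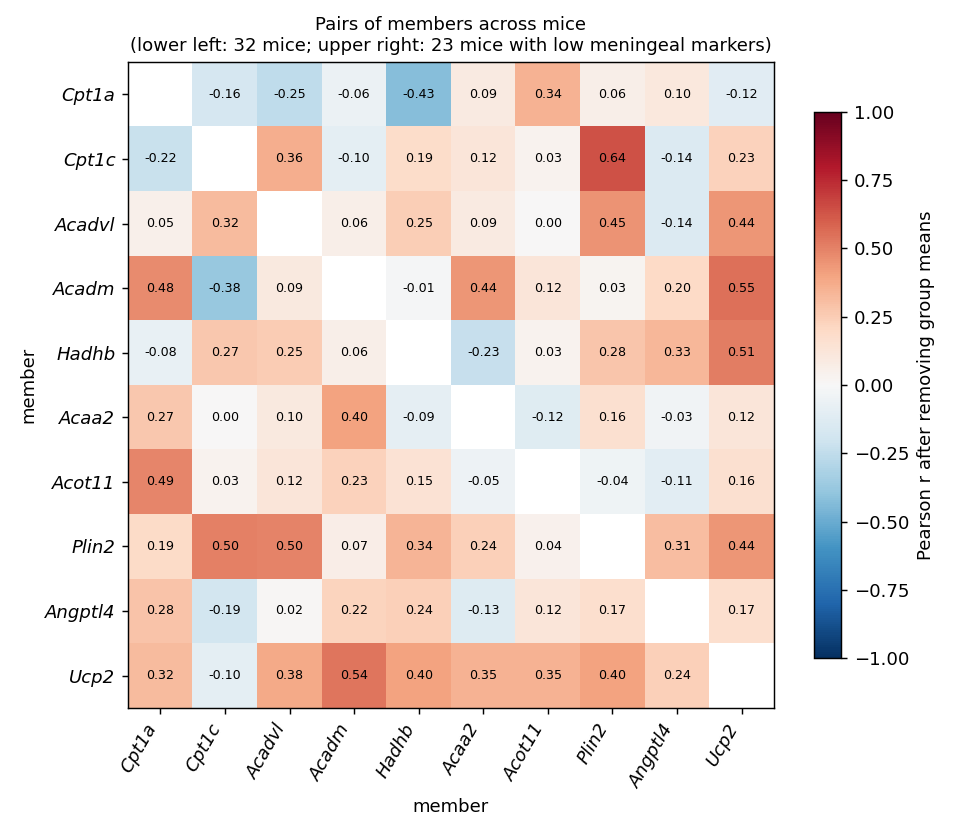
Pearson r between members over 32 mice (lower left) and over the 23 mice with low meningeal markers (upper right), after the mean of each group was removed. Plin2 with Cpt1c keeps a positive r in both, at 0.50 and 0.64, whereas Cpt1a with Acadm is at 0.48 and -0.06.

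Among 12299 genes with a mean of at least 100 normalized counts, those with the highest r to each member over 32 mice were listed as a description, with r in the 23 mice with low meningeal markers beside it. Cpt1a was nearest to Podxl at 0.88 (0.75 in the 23 mice), Ston1 at 0.85 (0.57) and Msn at 0.85 (0.72). Acadm was nearest to Kl at 0.80 (0.53), Ifitm3 at 0.79 (0.65) and Laptm4a at 0.79 (0.55). For both, as for Cpt1c and Acaa2 below, r was smaller in the 23 mice for all 3 genes. The genes were picked by their r over the 32 mice, so a smaller r in a subset carries no further reading. Ucp2 was nearest to Ptp4a2 at 0.81 (0.81), Lin7c at 0.80 (0.75) and Stk32a at 0.75 (0.79). Cpt1c was nearest to Pcsk1n at 0.78 (0.75), Hps6 at 0.76 (0.64) and Eef2 at 0.72 (0.48). Acot11 was nearest to Gpc6 at 0.73 (0.73), Jag1 at 0.67 (0.68) and Obsl1 at 0.67 (0.67). The Acot11 and Ucp2 values were thus much the same in both sets of mice. Acadvl was nearest to Wif1 at 0.68 (0.61), Pdyn at 0.67 (0.75) and Pcsk5 at 0.67 (0.61), and Plin2 to Hey2 at 0.66 (0.63), Galnt10 at 0.64 (0.70) and Foxb1 at 0.64 (0.63). Hadhb was nearest to Nit1 at 0.65 (0.63), Igtp at 0.61 (0.65) and Bag1 at 0.59 (0.67), and Acaa2 to Ifit2 at 0.64 (0.40), Dbpht2 at 0.63 (0.62) and Cd44 at 0.63 (0.44). Angptl4 was nearest to Ccng1 at 0.60 (0.72), Hadh, an enzyme of beta-oxidation, at 0.59 (0.55), and Ttf1 at 0.56 (0.49). No member was among the 3 nearest genes of another member.

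Cell-type marker lists were related to the members within the 23 mice, in 80 relations. None passed by r after adjustment, and 2 passed by rho, both for Ucp2. With the tanycyte list, Ucp2 had r = 0.64 (p = 0.00067, adjusted p = 0.0532, permutation test) and rho = 0.83 (p = 2e-05, adjusted p = 0.0016), and r = 0.69 without the 2 farthest mice. With the ependymal list it had r = 0.70 (p = 0.00133, adjusted p = 0.0532, permutation test) and rho = 0.66 (p = 0.00123, adjusted p = 0.0492), and r = 0.71 without the 2 farthest mice. Ucp2 also had r = -0.58 (rho = -0.61) with the oligodendrocyte list and r = -0.52 (rho = -0.56) with the neuron list, and neither passed. Whether these relations follow the mix of cells in each sample was not tested. Tanycytes are specialised glia that line the floor of the third ventricle beside ependymal cells.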

How the data were processed

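Hypothalamic RNA of 32 mice was sequenced with a stranded paired-end protocol, per the labels' protocols. Listed in the submitters' processing notes are STAR 2.7.6a, DESeq2 1.28.1, FastQC, cutadapt 2.10, Trim Galore 0.6.2, R 4.0.2 and the build GRCm38. Neither the counter nor its strand setting is given there. Values deposited by the authors are log2 of size-factor normalized counts, with 0 listed as the log2 of 0.1. Undoing this returned whole reads for 100% of values within 1e-06.

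The members and lists were chosen with earlier results of these data known. Named genes are all 10 members, Gpr101, called genes of each list or else up to 2 of smallest p for diet and for genotype, and the 3 genes of highest r to each member. Values were log2(normalized count + 1), so fold changes of low genes are understated. Genes reaching 10 normalized counts in at least 7 libraries were tested with limma 3.58.1 (trend and robust moderation, statmod 1.5.0, R 4.3.3) in 1 fit of 4 group means, two-sided, with Benjamini-Hochberg adjustment over 19928 genes. The fit was tested on simulated data. Correlations used Python 3.11.15 with numpy 2.4.6 and 100000 resamples. Each library is a separately labelled mouse. Of the cell-type, stress and hypoxia marker lists, blood alone held called genes for diet or genotype averaged. Alternatives varied the pseudocount, filter, scaling, test, covariates and libraries. Some genes that the lists and the naming rule take are not reported here, and the list counts and medians are without them.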

Additional observations from a re-analysis of the deposited data

Results flagged for a closer look

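Acaa2 in KO_HFD replicate 4 was at 468.7 normalized counts, below the next KO_HFD mouse at 513 and the mean of its 9 mice at 522. The gap to the next mouse was 0.535 of the range of the group, above the limit of Dixon's test for 9 samples. It was 1 of 40 combinations of member and group that were examined, and chance flags about 1 in 20. The same mouse had a blood marker list mean of 11.83 on the log2 scale, the highest in KO_HFD. Whether the values are related was not tested.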

How the results depend on the processing

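The Acaa2 and Acot11 calls for diet averaged over genotypes were kept with other pseudocounts, filters and scaling, with limma-voom on recovered reads and in every fit that left out 1 mouse. They were lost with age as a covariate (0 members called), in mice of 150 days (0) and in mice of 149 days (0), and 1 member was called in the 23 mice with low meningeal markers; the last 3 subsets, and that without the 2 mice of highest blood markers, were chosen after seeing the data. Age and diet overlap so far that fits within an age rest on few mice. The 10 negative genotype differences averaged over diets kept their sign in all 44 alternatives, but not their size: in the 23 mice with low meningeal markers they lay between -0.0671 for Angptl4 and -0.0023 for Acadvl, and in mice of 150 days Acaa2 was at -0.000375 and Cpt1a at -0.000744.

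Genes called for diet averaged over genotypes numbered 67 here, 43 with no filter, 12 with age as a covariate, 15 with low meningeal markers, 0 in mice of 150 days and 0 in mice of 149 days. On leaving out 1 mouse they numbered 41 to 87, the lowest without KO_CD replicate 5 (43) and WT_CD replicates 1 (44), 2 (41) and 6 (41). For diet in knockouts, 7 genes became 4 with scaling to total reads, 2 in mice of 150 days and 3 in mice of 149 days, and 3 to 10 on leaving out 1 mouse (4 without KO_CD replicate 3 or KO_HFD replicate 7, 3 without KO_CD replicate 6 or KO_HFD replicate 8). For diet in wild types, 5 became 1 with age as a covariate, 3 with low meningeal markers, 0 in mice of 150 days and 1 in mice of 149 days, and 1 to 7 on leaving out 1 mouse (3 without WT_CD replicate 1, 1 without WT_CD replicate 2). For genotype, 1 gene became 2 on control diet with no filter and 4 on high-fat diet in mice of 149 days. No member was among the genes called for genotype, for diet within a genotype or for the interaction under any alternative. The cause of these shifts was not tested. Scaling to total reads gave 2 pairs of members past the threshold for r, against 0.

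Signs for diet averaged over genotypes turned in Cpt1c, Hadhb and Acadvl, which lay near 0, and in Ucp2, which did not. Cpt1c was at 0.00503 with age as a covariate and 0.00255 in mice of 149 days. Hadhb was at -0.00224 without the 2 mice of highest blood markers and -0.0178 in mice of 150 days, and between -0.00103 and 0.0154 on leaving out 1 mouse. Acadvl was at 0.0336 with age as a covariate, 0.0384 in mice of 150 days and 0.0147 in mice of 149 days, and between -0.0156 and 0.00701 on leaving out 1 mouse. Ucp2 was at 0.0667 in all mice and at -0.0171 in the 23 mice with low meningeal markers.

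With the replicate number as a block, Acaa2 (adjusted p = 0.0106) and Acot11 (adjusted p = 0.0149) kept their calls, while diet in wild types had 3 genes called and Acaca was lost (adjusted p = 0.113). Whether the numbers pair the mice was not tested. Same-numbered mice of different groups had a mean correlation of 0.0196 (-0.195 to 0.321, 45 pairs). The 338 other pairs between groups had a mean of -0.00261 (-0.273 to 0.369). Of the 45 pairs, 8 were over 0.1. Although pairs of other numbers were far more frequent, 11 of 32 mice correlated best with their own number. Acaca was also lost with no filter (adjusted p = 0.0969), with scaling to total reads (adjusted p = 0.066) and with age as a covariate (adjusted p = 0.145).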
